A study of Mus musculus with 70 samples.

Results

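The 8 genes described here are known from dendritic cells or dendritic-like monocytes. Cd209a, Clec10a, Mgl2, Itgax, Flt3, Batf3, Irf4 and Zbtb46 were followed across sorted blood leukocytes. Not all are particular to such cells: in unstressed mice Irf4 was as high in B cells as in Ly6C-high monocytes. The genes are 8 of the 52636 genes in the count table, taken by name. The set was put together around Cd209a, which was chosen by its measured fall in Ly6C-high monocytes of stress-susceptible against unstressed mice, so all values of that comparison are given here as a description, without a p-value. Every other comparison was fitted across all genes, and for Cd209a no p-value is given where the Ly6C-high SUS or CON libraries that chose it enter a comparison between conditions of that cell type.

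A small share of classical, Ly6C-high monocytes carries features of dendritic cells, the leukocytes that take up antigen and present it to T cells. Such monocytes are known for the lectin CD209a and for high MHC class II, and they depend on other factors than the monocytes that resemble neutrophils. In the dendritic lineage, the receptor FLT3 passes on the growth signal of FLT3 ligand, IRF4 is needed by the CD11b+ subset, BATF3 by the cross-presenting subset, and ZBTB46 marks conventional dendritic cells and their committed precursors.

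The libraries came from C57BL/6J mice aged 7 to 8 weeks at the start of chronic social defeat stress (CSDS), in which a mouse met an aggressive CD-1 mouse for 10 min on each of 10 days. Defeated mice with a social interaction ratio under 1 in the test 24 h after the last defeat were stress-susceptible (SUS), the others resilient (RES). Unstressed controls (CON) lived in pairs separated by a divider. No allele or agent is named for any group, and SUS and RES were set apart by this ratio alone. Per the study's methods, trunk blood leukocytes were stained for CD11b, Ly6C, Ly6G, B220 and CD90.2 and sorted into B cells, T cells and monocytes of high or low Ly6C. The deposited labels name brain as the source, which goes against these methods. The panel held no antibody to CD11c or MHC class II. In such bulk samples, fewer cells of a type and less RNA per cell cannot be told apart.

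Of 70 libraries 68 were used. Library 52, labelled RES B cells, held 412 CPM (counts scaled to library size) of the T cell gene Cd3e and 5.76 CPM of the B cell gene Cd79a, and library 70, labelled RES T cells, held 0.143 and 1417 CPM. Both go against their labels and were left out. Groups held 6 libraries each, except 4 for Ly6C-low CON and 5 each for RES B cells and RES T cells. Totals ran from 19769835 to 67038231 counts per library, with a median of 37105583.5. The summed level of 4 Ly6C-high monocyte markers was 3726 to 6724 CPM in Ly6C-high and 199 to 649 CPM in Ly6C-low libraries, and that of 5 Ly6C-low markers 715 to 1671 and 6380 to 8876 CPM. No label says which mouse a library came from, so no pairing across cell types was possible, and p-values measure the spread between libraries.

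The genes lie on 7 chromosomes of GRCm38 (mm10), each with its GENCODE M21 span. Cd209a (ENSMUSG00000031494) spans chr8:3743397-3748984 on the minus strand. The macrophage galactose lectin genes Mgl2 (ENSMUSG00000040950, chr11:70130329-70137550) and Clec10a (ENSMUSG00000000318, chr11:70156197-70170834) lie close together on the plus strand. Itgax (ENSMUSG00000030789) spans chr7:128129547-128150657, Flt3 (ENSMUSG00000042817) chr5:147330741-147400489 on the minus strand, Batf3 (ENSMUSG00000026630) chr1:191097847-191108945, Irf4 (ENSMUSG00000021356) chr13:30749226-30766976 and Zbtb46 (ENSMUSG00000027583) chr2:181387762-181459426 on the minus strand. Mgl2 and Clec10a are close paralogs, and Cd209a has several, so reads shared with a copy make their levels uncertain. No exonic base of the 8 genes lies in an exon of another annotated gene.

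The bases just before the start site are shown for 4 of the genes. Of these, Cd209a, Mgl2 and Flt3 varied together from library to library in Ly6C-low monocytes. Itgax had a negative correlation with Cd209a there that did not pass the test. Irf4 also varied with Cd209a there, and its bases are not shown. RefSeq (GRCm38.p6) gave a start for 7 of the 8 genes, and not for Clec10a. Each line holds the 250 bases upstream of it, 5′ to 3′ on the strand of the gene, at chr8:3748985-3749234 for Cd209a, chr11:70130107-70130356 for Mgl2, chr5:147400490-147400739 for Flt3 and chr7:128129300-128129549 for Itgax. Capitals mark matches, on either strand, to 5 motifs: GGAAGT (bound by ETS factors such as PU.1), TGANTCA (AP-1, which reads the same on both strands), the ETS-IRF composite element, which can overlap an ETS match, the interferon-stimulated response element and the core promoter letters TATAAA.
Cd209a: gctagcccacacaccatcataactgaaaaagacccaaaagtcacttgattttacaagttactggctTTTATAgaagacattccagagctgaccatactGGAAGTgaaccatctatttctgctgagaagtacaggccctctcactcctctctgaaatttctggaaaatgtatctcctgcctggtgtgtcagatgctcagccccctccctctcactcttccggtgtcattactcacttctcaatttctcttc
Mgl2: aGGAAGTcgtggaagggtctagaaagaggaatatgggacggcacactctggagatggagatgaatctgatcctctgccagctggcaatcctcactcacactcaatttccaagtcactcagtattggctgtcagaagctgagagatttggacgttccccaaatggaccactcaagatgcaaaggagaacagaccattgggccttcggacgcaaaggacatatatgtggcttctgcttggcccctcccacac
Flt3: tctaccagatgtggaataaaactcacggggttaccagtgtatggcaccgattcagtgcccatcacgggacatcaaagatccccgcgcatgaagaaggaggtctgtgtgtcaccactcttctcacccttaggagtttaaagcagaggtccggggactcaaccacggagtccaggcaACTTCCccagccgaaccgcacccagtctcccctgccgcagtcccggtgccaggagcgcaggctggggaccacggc
Itgax: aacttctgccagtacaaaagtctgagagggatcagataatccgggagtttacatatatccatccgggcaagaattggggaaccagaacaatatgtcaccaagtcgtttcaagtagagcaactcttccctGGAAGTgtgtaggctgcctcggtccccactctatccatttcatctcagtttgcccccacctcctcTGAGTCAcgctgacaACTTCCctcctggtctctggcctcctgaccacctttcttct

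An ETS match lay 152 bases before the start in Cd209a, 249 bases before it in Mgl2, 75 in Flt3, and 121 and 41 in Itgax. Of 32851 mouse promoters of this length, 19.7% held one. Itgax also held an AP-1 match 56 bases before the start (6.75% of promoters), and Cd209a the TATAAA match on the opposite strand at 184 bases (12.4%). The window of Irf4, which is not shown, held a TATAAA match 26 bases before the start and no ETS match. Of the other windows not shown, that of Batf3 held an ETS match 241 bases before the start. That of Zbtb46 held an AP-1 match at 61 bases and no ETS match. Neither the ETS-IRF composite element (2.3% of promoters) nor the interferon-stimulated response element (2.98%) matched in these windows. These matches describe letters only.

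Levels in unstressed mice were compared first. Here CPM were scaled across all 68 libraries by TMM, a normalisation by trimmed means, and the edgeR quasi-likelihood test was fitted to all 12 groups, and a gene was called where its adjusted p fell below 0.05 and its log2 difference exceeded 1 in size. All 8 genes were higher by this rule in Ly6C-low monocytes than in T cells, against 27.1% of all genes called in either direction. Against B cells, 7 were higher in Ly6C-low monocytes and 1 lower (28.9% of all genes called). Ly6C-high monocytes had 6 genes above B cells (32.3% called) and 6 above T cells (32.4%). By mean level 7 of the 8 genes were highest in one of the monocyte types, Irf4 being the exception.

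**Figure D1:**
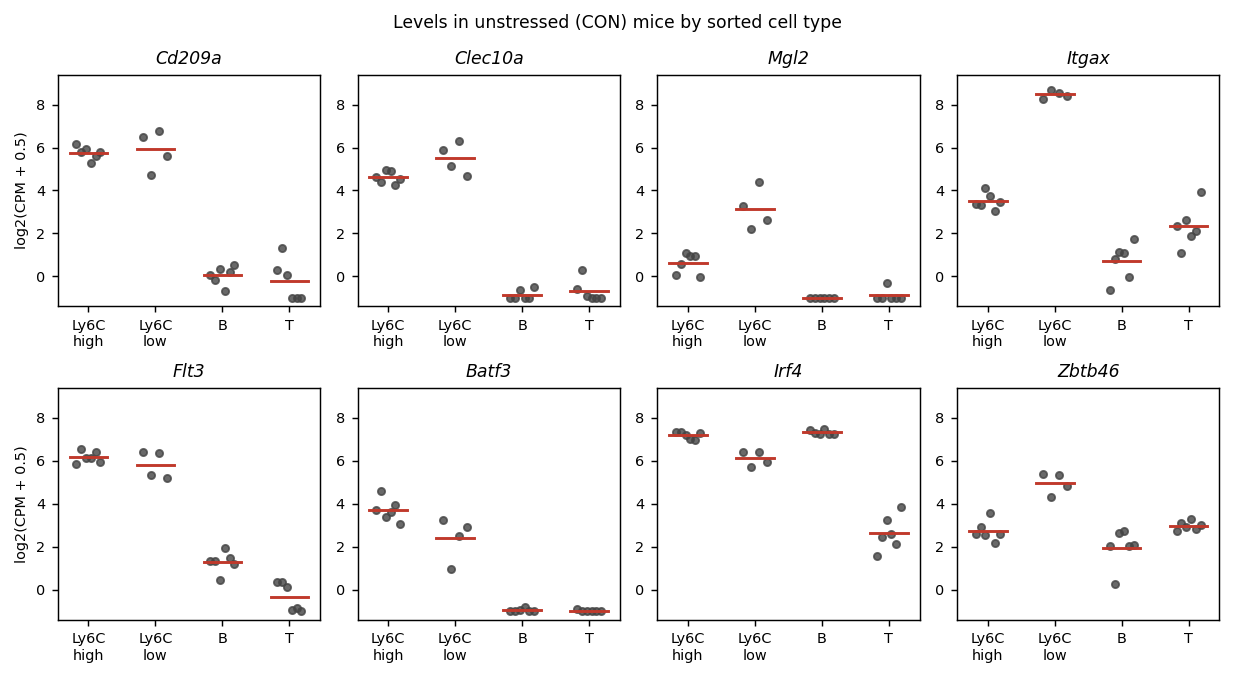
Level of each gene in CON libraries as log2(CPM + 0.5), scaled across all libraries, by sorted cell type (6 libraries each, 4 for Ly6C-low). Points are libraries and red bars are means of the plotted values. Itgax stands far higher in Ly6C-low monocytes than elsewhere (359 against 11.3 CPM in Ly6C-high), while Irf4 is as high in B cells as in Ly6C-high monocytes.

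Among the lectins, Cd209a, which binds carbohydrates on pathogens, was at 54.5 ± 11.4 CPM (SD, n = 6) in Ly6C-high and 68.6 ± 38.0 CPM (SD, n = 4) in Ly6C-low CON libraries. The monocyte types did not differ beyond their spread, with a log2 difference of -0.33 (95% interval -1.80 to 1.14). B cells held 0.572 ± 0.285 CPM and T cells 0.551 ± 0.789 CPM (SD, n = 6 each), and 3 of the 6 T cell libraries had no Cd209a count. Clec10a, a receptor for galactose-type sugars, was at 24.4 ± 4.83 CPM in Ly6C-high and 48.8 ± 23.7 CPM in Ly6C-low, a log2 difference of -1.0 (SE 0.76) that was not called (edgeR adjusted p = 0.434; 0.0062 when only these 2 groups were fitted). Mgl2, its paralog, was at 1.09 ± 0.492 CPM in Ly6C-high and 9.96 ± 7.53 CPM in Ly6C-low and was called (log2 difference -3.19, SE 1.08, edgeR adjusted p = 0.0296). Without Ly6C-high library 1, 4 or 16, or Ly6C-low library 29, the adjusted p for Mgl2 ran from 0.0523 to 0.148. No B cell CON library had an Mgl2 count, so that its level was at least 108-fold higher in Ly6C-low and at least 11.8-fold higher in Ly6C-high monocytes than the floor of 3 counts per B cell library.

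Itgax encodes CD11c, the integrin chain used to recognise dendritic cells. It was at 359 ± 46.3 CPM in Ly6C-low and 11.3 ± 3.29 CPM in Ly6C-high CON libraries, and the groups did not come near each other (log2 difference -4.99, SE 0.55, edgeR adjusted p = 2.16e-10). T cells held 5.58 ± 4.65 CPM of Itgax, with an adjusted p of 0.0643 against Ly6C-high by edgeR. That difference was called when T cell library 68 was left out (log2 1.59, adjusted p = 0.00541). Flt3, the growth factor receptor, was at 72.3 ± 13.4 CPM in Ly6C-high and 60.6 ± 26.5 CPM in Ly6C-low, a log2 difference of 0.26 (95% interval -1.0 to 1.51), and at 2.04 ± 0.804 CPM in B cells and 0.373 ± 0.388 CPM in T cells.

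The transcription factors had 3 different orders. Batf3 was at 13.5 ± 5.64 CPM in Ly6C-high and 5.66 ± 3.26 CPM in Ly6C-low (log2 difference 1.25, SE 0.77, edgeR adjusted p = 0.297, and 0.0367 when only these groups were fitted), and all B cell CON libraries together held 3 counts and all T cell CON libraries 1. Irf4, also a factor of B cell activation and plasma cells, was at 160 ± 11.9 CPM in B cells and 147 ± 17.1 CPM in Ly6C-high, which did not differ beyond their spread (log2 difference -0.13, 95% interval -0.64 to 0.39). It stood lower in Ly6C-low, at 70.2 ± 16.3 CPM (Ly6C-high against Ly6C-low log2 1.07, SE 0.30, edgeR adjusted p = 0.00804), and lowest in T cells, at 6.56 ± 4.15 CPM. The call between the monocyte types was lost without Ly6C-low library 24 (log2 0.95). Zbtb46 was highest in Ly6C-low, at 32.0 ± 10.3 CPM, against 7.43 ± 1.15 in T cells, 6.5 ± 2.58 in Ly6C-high and 3.89 ± 1.94 CPM in B cells (Ly6C-high against Ly6C-low log2 -2.30, SE 0.51, edgeR adjusted p = 0.000497).

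Between the monocyte types 4 of the 8 genes were thus called in the fit of all 12 groups, against 10.6% of all genes. Irf4 was called towards Ly6C-high, and Itgax, Mgl2 and Zbtb46 towards Ly6C-low. With only these groups fitted, the edgeR adjusted p of Clec10a and Batf3 also fell below 0.05, so for these genes it depended on the fit. Between B and T cells 4 were called (20.0% of all genes): Irf4 and Flt3 were higher in B cells, Itgax and Mgl2 in T cells, where all 13 Mgl2 counts came from 1 of 6 libraries. Per kilobase of annotated exon, Cd209a (34.5 ± 7.17 CPM per kb) and Irf4 (30.0 ± 3.49) led in Ly6C-high CON libraries, ahead of Flt3 (11.7 ± 2.18), Batf3 (8.44 ± 3.53), Clec10a (8.42 ± 1.66), Itgax (2.36 ± 0.686), Zbtb46 (0.764 ± 0.304) and Mgl2 (0.519 ± 0.235). In Ly6C-low libraries Itgax led with 74.8 ± 9.64 CPM per kb, followed by Cd209a with 43.3 ± 24.0. Markers of some other cells stood higher in Ly6C-low than in Ly6C-high CON libraries. Those of natural killer cells (5, all detected) summed to 273 to 903 against 2.04 to 32.6 CPM. Those of cross-presenting dendritic cells (5, all detected) summed to 24.6 to 58.6 against 4.20 to 13.4 CPM. Neutrophil markers went the other way (at most 6.0 against 350 CPM). The part of such cells in the differences between the monocyte types was not tested.

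Within each cell type, CPM were scaled among the libraries of that type only, which set them at 0.934 to 0.988 times the CPM above for Ly6C-high and at 1.18 to 1.19 times for Ly6C-low CON libraries. In Ly6C-high monocytes Cd209a ranged from 37.6 to 69.0 CPM in CON (median 51.0), from 0.606 to 10.1 in SUS (median 5.12) and from 3.94 to 39.9 in RES (median 26.5). All 6 SUS libraries lay below all 6 CON libraries. The SUS mean was 0.101 times the CON mean, and the fitted log2 difference was -3.30 (SE 0.55). Cd209a was 1 of the 8 genes past both thresholds in this comparison, against 3.45% of all genes, and 1 of 8 with every SUS library below every CON library, against 2.74%. These values chose the set and support nothing. Counts were high enough for this range, the lowest SUS library holding 31 Cd209a counts and the lowest CON library 1326.

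RES libraries spread between the others. For Cd209a, 3 of the 6 held 36.5, 39.1 and 39.9 CPM, of which 36.5 lay just below the CON range and the other two at its low end, and the others held 3.94, 8.00 and 16.5 CPM, of which the first 2 lay within the SUS range. Of the RES libraries 4 lay below all CON libraries. The RES against CON difference of Cd209a was -1.11 (SE 0.51) and that of SUS against RES -2.19 (SE 0.53), given as a description because the CON and SUS libraries in them chose the gene. No member was called in either comparison, where 0.997% and 0% of all genes were called. With Cd209a left aside, no member reached an unadjusted p under 0.05 by edgeR for RES against CON (21.2% of all genes). For SUS against RES only Irf4 did (3.66% of all genes). DESeq2 called 0 members in both. The comparisons share libraries, so their values are not independent of one another.

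**Figure D2:**
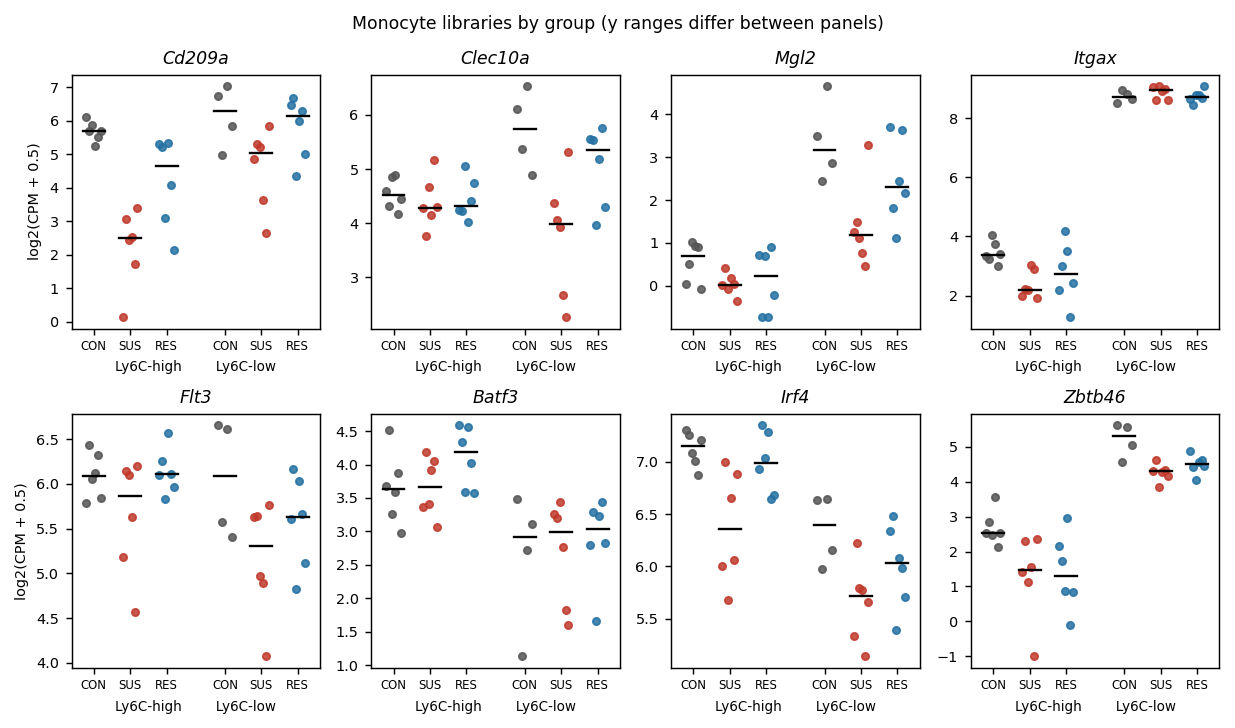
Level of each gene in every monocyte library as log2(CPM + 0.5), scaled within the cell type, for CON (grey), SUS (red) and RES (blue); black bars are medians. In Ly6C-high monocytes the SUS libraries of Cd209a (0.606 to 10.1 CPM) lie apart from CON (37.6 to 69.0 CPM) with RES across the range between, and in Ly6C-low monocytes most groups overlap.

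The other lectins gave no such pattern in Ly6C-high monocytes. Clec10a had medians of 22.4 CPM in CON, 19.1 in SUS and 19.6 in RES, with overlapping ranges (17.4 to 29.3, 13.2 to 35.6 and 15.8 to 32.7). The SUS against CON log2 difference was -0.11 (SE 0.23). Mgl2 was low throughout, with medians of 1.15, 0.519 and 0.739 CPM. Itgax had a median of 9.77 CPM in CON (7.44 to 15.9), 4.09 in SUS (3.28 to 7.77) and 6.20 in RES (1.92 to 17.5). Of the SUS libraries 5 of Itgax lay below every CON library, while the RES libraries reached both lower and higher than CON. Its log2 difference was -1.13 (SE 0.40) for SUS and -0.46 (SE 0.39) for RES against CON.

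Flt3 in Ly6C-high monocytes had medians of 67.5 CPM in CON, 58.5 in SUS and 68.4 in RES, and 3 SUS libraries fell below the CON range of 54.9 to 86.4. RES and CON overlapped, with 1 RES library above all CON libraries and 1 CON library below all RES libraries. Irf4 ranged from 117 to 158 CPM in CON (median 141), from 50.8 to 127 in SUS (median 83.4) and from 99.6 to 162 in RES (median 126). Of 6 SUS libraries 4 lay below all CON libraries, and the log2 difference was -0.67 (SE 0.19) for SUS against CON, under the fold threshold. SUS against RES for Irf4 was -0.56 (SE 0.19, edgeR adjusted p = 0.999, unadjusted 0.00757). Batf3 medians were 11.9, 12.4 and 17.8 CPM in CON, SUS and RES, with a RES against CON difference of 0.45 (95% interval -0.09 to 0.98). Zbtb46 had medians of 5.25, 2.30 and 2.06 CPM, with 4 SUS and 4 RES libraries below all CON libraries and 1 SUS library at 0 counts, and log2 differences of -1.28 (SE 0.70) for SUS and -1.12 (SE 0.70) for RES.

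Red cell genes differed between the same Ly6C-high groups. The summed level of 6 of them (hemoglobin chains, Alas2 and Slc4a1), all detected, was 332 to 1142 CPM in CON, 1049 to 8776 in SUS and 1044 to 4130 in RES. With their mean log2 level as a covariate the SUS against CON difference of Cd209a was -2.83 and no member passed both thresholds, and the RES differences of Irf4 and Zbtb46 turned to 0.11 and 0.38. Because red cell level went with the group, this fit cannot separate it from the condition. The summed level of 5 markers of cross-presenting dendritic cells, all detected, was 4.20 to 13.4 CPM in CON, 4.30 to 7.12 in SUS and 1.06 to 5.13 in RES, and that of 5 plasmacytoid markers 2.24 to 6.76, 0.412 to 3.03 and 0.985 to 3.67, with Cox6a2 at 0 in CON and RES. Neutrophil markers (5, all detected) summed to 1.18 to 350, 17.1 to 1051 and 5.71 to 595 CPM, and 6 platelet markers, all detected, to 5.78 to 9.81, 5.23 to 50.1 and 7.42 to 18.5 CPM. The part of these cells in the member values was not tested.

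In Ly6C-low monocytes 6 of the 8 genes reached an unadjusted p under 0.05 by edgeR for SUS against CON, all of them lower in SUS. Of all genes tested 9.51% reached it in either direction. Among the 6, Clec10a, Flt3, Irf4 and Mgl2 varied with Cd209a from library to library, so the 6 are not independent of one another. Of the 6, Zbtb46 was called, against 0.0871% of all genes. Its CON libraries held 23.0, 32.7, 46.9 and 48.5 CPM. SUS ranged from 13.8 to 24.1 (median 19.2) and RES from 16.2 to 29.1 (median 22.2). Of 6 SUS libraries 5 lay below every CON library, and the highest SUS library exceeded the lowest of CON. The fitted SUS against CON difference was -1.0 (SE 0.20, edgeR adjusted p = 0.026), just past the fold threshold. The call was lost in 9 of the 16 fits that left out 1 library (libraries 19, 25, 27, 30 and 33 of SUS, 21, 29 and 32 of CON, 23 of RES), where the difference ran from -1.18 to -0.86 over all 16 and the adjusted p from 0.00514 to 0.133. With the red cell covariate it was -0.96 (adjusted p = 0.235), and with only SUS and CON in the fit -1.01 (adjusted p = 0.0787). Red cell level was higher in SUS and RES than in CON here too, so the covariate fit cannot separate it from the condition. For Zbtb46 RES against CON was -0.75 (SE 0.20, adjusted p = 0.153).

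The lectins followed the same order of groups without passing the test. Cd209a CON libraries held 31.2, 56.8, 107 and 130 CPM. SUS ranged from 5.75 to 57.0 (median 32.8) and RES from 19.9 to 101 (median 70.5), so that all groups overlapped. The SUS against CON difference was -1.44 (SE 0.61, edgeR adjusted p = 0.469, unadjusted 0.0341). Clec10a CON libraries held 29.2, 41.1, 68.9 and 92.0 CPM, against 4.32 to 39.5 in SUS (median 15.4) and 15.1 to 53.8 in RES (median 40.8), with 5 of 6 SUS libraries below all CON libraries. Its difference was -1.78 (SE 0.57, adjusted p = 0.277, unadjusted 0.0075). Mgl2 CON libraries held 4.92, 6.75, 10.8 and 24.8 CPM, against 0.879 to 9.30 in SUS (median 1.78). Here too 5 of 6 SUS libraries fell below CON, and 1, library 33, lay within it. The Mgl2 difference was -2.04 (SE 0.70, adjusted p = 0.303), and -2.90 (adjusted p = 0.0168) without library 33.

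Flt3 CON libraries of the Ly6C-low type held 41.9, 47.3, 97.2 and 100 CPM, and SUS ranged from 16.3 to 53.8 (median 39.9), a difference of -0.91 (SE 0.37, edgeR adjusted p = 0.435). Irf4 CON libraries held 62.3, 70.8, 99.1 and 99.9 CPM, with 34.8 to 74.3 in SUS (median 52.0) and 41.5 to 89.0 in RES (median 65.0). For Irf4, 5 of 6 SUS libraries lay below all CON libraries, and the difference was -0.69 (SE 0.22, adjusted p = 0.237). Itgax and Batf3 gave no such order. Itgax medians were 423 CPM in CON, 492 in SUS and 422 in RES, with a SUS against CON difference of 0.15 (95% interval -0.07 to 0.37), and Batf3 medians were 7.14, 7.51 and 7.76. No member had all SUS libraries below all CON libraries, against 0.855% of all genes. For RES against CON 0 of 8 members were called (0.0154% of all genes), 1 at an unadjusted p under 0.05 by edgeR (9.67% of all genes) and 0 by DESeq2. For SUS against RES 0 were called (0% of all genes), 0 at an unadjusted p under 0.05 and 0 by DESeq2.

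**Figure D3:**
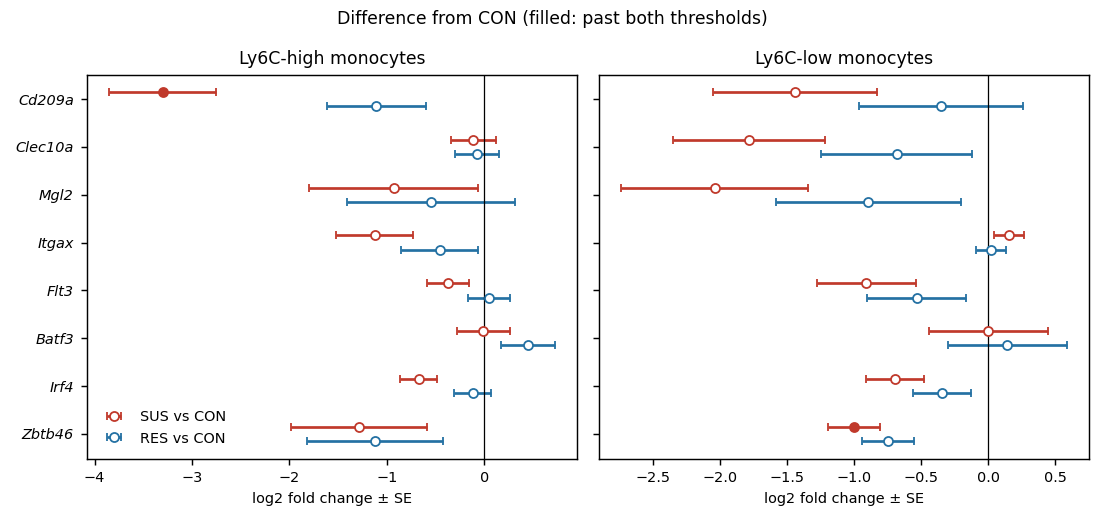
Fitted log2 difference from CON with its SE for SUS (red) and RES (blue) in Ly6C-high (left) and Ly6C-low (right) monocytes, filled where past both thresholds. Cd209a in Ly6C-high SUS (-3.30, the comparison that chose the set) and Zbtb46 in Ly6C-low SUS (-1.0) are filled; the horizontal ranges of the panels differ.

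Red cell genes in Ly6C-low libraries summed to 351 to 1484 CPM in CON, 1003 to 3188 in SUS and 1031 to 4513 in RES. The 5 cross-presenting dendritic cell markers, all detected, summed to 24.6 to 58.6 CPM in CON, 11.9 to 30.2 in SUS and 15.7 to 38.9 in RES. By median this sum was highest in CON and lowest in SUS, as were Zbtb46, Cd209a, Clec10a, Mgl2, Flt3 and Irf4. Of the markers, Tlr3 went the other way in SUS against CON (log2 0.17, SE 0.33). Plasmacytoid markers summed to 7.18 to 19.6, 4.13 to 12.9 and 3.42 to 11.4 CPM, with Klk1 at 0 in CON. Natural killer cell markers, all 5 detected, summed to 273 to 903, 353 to 957 and 512 to 1392 CPM. Their part in the differences above was not tested. Whether the RES against CON change differed between the monocyte types was tested in the fit of all groups: for 0 of 8 members was it past an adjusted p of 0.05 (0.0990% of all genes), with 0 at an unadjusted p under 0.05 and 0 by DESeq2. For Cd209a the difference of the changes was -0.78 (95% interval -2.78 to 1.22). This fit takes the spread of a gene from all groups, B and T cells included, and its SEs were wide (1.03 for Clec10a, 0.68 for Itgax). The lack of calls thus does not show that the changes were alike.

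In B and T cells 6 of the 8 genes passed the filter on low counts, and Mgl2 and Batf3 did not. No member was called in SUS against CON, RES against CON or SUS against RES, in B cells (0.00568%, 0% and 0% of all genes called) or in T cells (0.0265%, 0% and 0%). In each of these 6 comparisons 0 members reached an unadjusted p under 0.05 by edgeR and 0 were called by DESeq2. Irf4 in B cells had medians of 137 CPM in CON, 133 in SUS and 147 in RES, with ranges of 133 to 160, 115 to 153 and 120 to 169. In T cells Irf4 had medians of 5.40, 12.2 and 10.4 CPM, with the CON range (2.54 to 14.2) overlapping both others. Of its 6 CON libraries there 5 lay below every RES library (9.61 to 12.7 CPM) and 1 above them all. Cd209a reached at most 1.82 CPM in any B cell and 2.1 CPM in any T cell library used. Zbtb46 in T cells had medians of 7.48, 6.23 and 7.73 CPM, and in B cells of 3.23, 4.07 and 4.08.

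Libraries of the same group also differed from one another, and in Ly6C-low monocytes several of the genes did so together. For each gene the log2 level (pseudocount 0.5) was taken as a deviation from its group mean. The deviation of Cd209a was correlated with that of each other gene over the 16 Ly6C-low and the 18 Ly6C-high libraries. This gave 14 relations in all, with 100000 permutations within groups. The relations over Ly6C-low libraries were added after the data had been seen, so their p-values are given as a description. Over Ly6C-low libraries Clec10a followed Cd209a most closely (Pearson r = 0.920, permutation p = 5e-05, adjusted 0.0007; Spearman rho = 0.838, permutation p = 0.00056, adjusted 0.00392). For Flt3 r was 0.881 (permutation p = 0.00025, adjusted 0.00175) and rho 0.877 (permutation p = 9e-05, adjusted 0.00126). For Irf4 r was 0.777 (permutation p = 0.00156, adjusted 0.00728) and rho 0.788 (permutation p = 0.00142, adjusted 0.00663). For Mgl2 r was 0.748 (permutation p = 0.00321, adjusted 0.0112) and rho 0.741 (permutation p = 0.00327, adjusted 0.0114). Without the 2 libraries farthest from the Cd209a median r was 0.873 for Clec10a, 0.788 for Flt3, 0.634 for Irf4 and 0.676 for Mgl2. All were lower than over all libraries but stayed positive, and they were not tested. Within the 4 CON, the 6 SUS and the 6 RES libraries taken singly, r with Clec10a was 0.78, 0.941 and 0.970.

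Itgax correlated negatively over Ly6C-low libraries (r = -0.563, permutation p = 0.0389, adjusted 0.0761; rho = -0.591, permutation p = 0.0296, adjusted 0.0519) without passing the correction. Batf3 (r = 0.541, permutation p = 0.0435, adjusted 0.0761; rho = 0.359, permutation p = 0.201, adjusted 0.256) and Zbtb46 (r = 0.454, permutation p = 0.088, adjusted 0.116; rho = 0.329, permutation p = 0.235, adjusted 0.274) did not pass either. Zbtb46, the gene called in SUS against CON, was thus not among those that passed the correction over Ly6C-low libraries. Whether its correlation with Cd209a differs from theirs was not tested.

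Over Ly6C-high libraries no Pearson correlation passed the correction. For Irf4 r was 0.594 (permutation p = 0.0265, adjusted 0.0736) and rho 0.703 (permutation p = 0.00786, adjusted 0.0185). For Flt3 r was 0.555 (permutation p = 0.0315, adjusted 0.0736) and rho 0.635 (permutation p = 0.0102, adjusted 0.0204). For Zbtb46 r was 0.487 (permutation p = 0.104, adjusted 0.121) and rho 0.701 (permutation p = 0.00792, adjusted 0.0185). Clec10a, the closest companion in Ly6C-low, had r = -0.496 (permutation p = 0.0724, adjusted 0.113) and rho = -0.521 (permutation p = 0.043, adjusted 0.0669). Batf3 had r = 0.415 (permutation p = 0.0909, adjusted 0.116) and rho = 0.352 (permutation p = 0.172, adjusted 0.241). Mgl2 and Itgax had r of -0.194 (permutation p = 0.524, adjusted 0.564) and -0.018 (permutation p = 0.955, adjusted 0.955) and rho of -0.309 (permutation p = 0.258, adjusted 0.278) and 0.0052 (permutation p = 0.989, adjusted 0.989). Without the 2 farthest libraries r was 0.530 for Irf4, 0.556 for Flt3, 0.664 for Zbtb46 and -0.678 for Clec10a. Whether the Ly6C-high and Ly6C-low correlations differ was not tested.

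**Figure D4:**
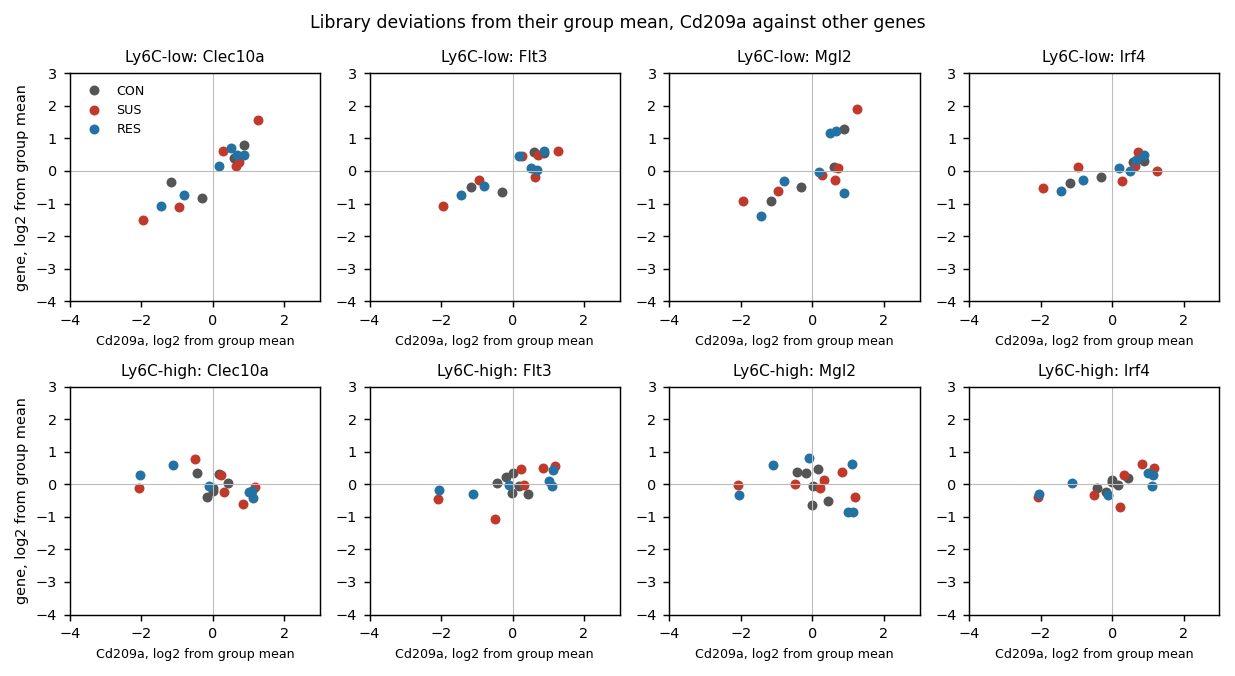
Deviation of each library from its group mean on the log2 scale, Cd209a on the horizontal axis and Clec10a, Flt3, Mgl2 or Irf4 on the vertical axis, for Ly6C-low (16 libraries, top) and Ly6C-high (18 libraries, bottom) monocytes, coloured by group. In Ly6C-low monocytes the points of all groups lie along a rising line for Clec10a (r = 0.920) and Flt3 (r = 0.881), and in Ly6C-high monocytes the Clec10a points do not (r = -0.496).

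Of 8734 protein-coding genes with a mean of at least 5 CPM in Ly6C-high libraries, the 10 whose deviations were most like those of Cd209a there were Tmcc1 (r = 0.883 over 18 libraries), Arhgap29 (0.875), Pkp4 (0.849), Ifnar1 (0.842), Sept11 (0.839), Kctd12 (0.811), 4930523C07Rik (0.808), Kdm5b (0.807), Lmtk2 (0.792) and Plekhf2 (0.790). Ifnar1 encodes a chain of the type I interferon receptor and Kdm5b a histone demethylase. No other member was among them, the nearest being Irf4 at rank 362 and Flt3 at 541. Over the 12 group means of all cell types, the 5 genes most like Cd209a were Armcx3 (r = 0.981), Hspa1b (0.979), Braf (0.979), Kcnrg (0.978) and Rnf150 (0.975) of 10567, and Clec10a stood at rank 138 (0.944). These r describe likeness only, and the libraries share cell type and depth.

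The wider families were described by counts, for the lists of genes picked for their known roles beside the members. In Ly6C-high monocytes 3.45% of all genes were past the thresholds in SUS against CON, 21.2% had an unadjusted p under 0.05 in RES against CON and 3.66% in SUS against RES. In Ly6C-low SUS against CON 9.51% of all genes had one, and between the monocyte types of CON mice 10.6% were called. Of 20 other C-type lectin receptors 14 were tested in Ly6C-high monocytes. In SUS against CON, in the comparison that chose the set, 1 was past the thresholds upwards (Clec4e, a receptor for mycobacterial cord factor, log2 1.28, SE 0.28) and 1 downwards (Mrc1, the mannose receptor, -2.23, SE 0.45), with a list median of 0.08 against -0.05 for all genes. In RES against CON edgeR called 0 of 14, with 4 at an unadjusted p under 0.05 (21.2% of all genes), and DESeq2 called 2, and Clec4a2, an inhibitory lectin receptor, was at 0.29 (SE 0.18, edgeR adjusted p = 0.370). In Ly6C-low monocytes 0 of 17 were called in SUS against CON, with 6 at an unadjusted p under 0.05 by edgeR and 0 called by DESeq2. Between the monocyte types of CON mice, Clec5a (log2 5.84, SE 1.31), Clec4a2 (3.38, SE 0.82) and Clec7a (2.24, SE 0.81) were called higher in Ly6C-high and Ly75 (-2.39, SE 0.42), the endocytic receptor DEC-205 of dendritic cells, lower, of 18 tested.

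Of 11 genes of the growth factor axis around Flt3, 2 were past the thresholds in Ly6C-high SUS against CON, both upwards: Il4ra, the interleukin-4 receptor chain (log2 1.76, SE 0.28), and Csf2rb2 (1.11, SE 0.21). Il4ra also rose in RES against CON (1.32, SE 0.27, edgeR adjusted p = 0.0142). The list median was 0.33 in SUS and 0.40 in RES, against -0.05 and -0.03 for all genes. In Ly6C-low SUS against CON edgeR called 0 of the 11, with 5 at an unadjusted p under 0.05, and DESeq2 called 0. Csf1r, the receptor of the monocyte growth factor CSF1, was at 0.18 there (SE 0.08, edgeR adjusted p = 0.429). Kit, the stem cell factor receptor, was lower in Ly6C-high than in Ly6C-low CON libraries (-4.35, SE 1.18, adjusted p = 0.00515).

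Of 19 other transcription factors of dendritic cell development, Batf (log2 1.37, SE 0.25) and Nfil3 (1.23, SE 0.22) were past the thresholds upwards in Ly6C-high SUS against CON and none downwards, with a list median of -0.13. Batf belongs to the same AP-1-like family as Batf3, which was at -0.01 (SE 0.27) in that comparison. In RES against CON edgeR called 0 of 19, with 7 at an unadjusted p under 0.05 (21.2% of all genes), and DESeq2 called 0. Irf8, the factor of cross-presenting dendritic cells and monocyte progenitors, was at 0.10 there (SE 0.19, edgeR adjusted p = 0.821). In Ly6C-low SUS against CON edgeR called 0 of 19, with 5 at an unadjusted p under 0.05, and DESeq2 called 1, and Irf8 was at 0.01 (SE 0.21, edgeR adjusted p = 0.997). In CON mice Spib (-2.23, SE 0.62), Bcl6 (-1.28, SE 0.22), Cbfa2t3 (-1.25, SE 0.41) and Id2 (-1.12, SE 0.37) were lower in Ly6C-high than in Ly6C-low monocytes, and none of the 19 was higher.

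Of 11 genes of MHC class II presentation, costimulation and migration, H2-Aa (log2 -1.06, SE 0.21) and H2-Eb1 (-1.06, SE 0.29) were past the thresholds downwards in Ly6C-high SUS against CON, and the median of the 10 tested was -0.70. Cd74, the invariant chain of MHC class II, was at -1.0 (SE 0.12), just short of the fold threshold. In SUS against RES edgeR called 0 of the 10, with 4 at an unadjusted p under 0.05, and DESeq2 called 2; Cd74 had an edgeR adjusted p of 0.00175 with a log2 difference of -0.93 (SE 0.12). For RES against CON edgeR and DESeq2 called 0 of the 10, with 1 at an unadjusted p under 0.05, and Cd74 was at -0.07 (SE 0.12, edgeR adjusted p = 0.799). In Ly6C-low SUS against CON the list median was -1.01, against -0.01 for all genes, with 0 of 11 called and 8 at an unadjusted p under 0.05 by edgeR (9.51% of all genes), all lower in SUS, and 3 called by DESeq2. Cd74 was at -1.01 there (SE 0.28, adjusted p = 0.208). Between the monocyte types of CON mice, where 10.6% of all genes were called, 7 of 11 were called lower in Ly6C-high, led by Ccr7 (-7.86, SE 0.75), Cd83 (-4.43, SE 0.61) and H2-Eb1 (-3.32, SE 0.58) and H2-Aa (-2.48, SE 0.48), and 1, H2-DMa, higher (1.02, SE 0.25).

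Of 4 integrin genes that can pair with or resemble Itgax, 0 of the 3 tested were past the thresholds in Ly6C-high SUS against CON, where Itgam, the CD11b chain stained for in the sort, was at 0.28 (SE 0.14). In RES against CON and in Ly6C-low SUS against CON edgeR and DESeq2 called 0, with 1 gene each at an unadjusted p under 0.05, and Itgam was at 0.22 (SE 0.14, edgeR adjusted p = 0.395) and 0.12 (SE 0.10, edgeR adjusted p = 0.814). Itgad (log2 -4.81, SE 1.29) and Itgal (-1.69, SE 0.17) were lower in Ly6C-high than Ly6C-low CON monocytes, as Itgax was. Of 10 further genes of CD11b+ dendritic cells or dendritic-like monocytes, Slamf7 (-2.28, SE 0.30) and Dpp4 (-1.30, SE 0.25) were past the thresholds downwards in Ly6C-high SUS against CON, with a list median of 0.02. In RES against CON edgeR called 0 of the 10, with 1 at an unadjusted p under 0.05, and DESeq2 called 1. In Ly6C-low SUS against CON edgeR called 0, with 2 at an unadjusted p under 0.05, and DESeq2 called 1, and Sirpa, the SIRP-alpha receptor, was at -0.04 (SE 0.11, edgeR adjusted p = 0.970). In CON mice Ccr2 (2.92, SE 0.53), the chemokine receptor that lets monocytes leave the marrow, and Tmem176b (1.59, SE 0.43) were higher in Ly6C-high than in Ly6C-low monocytes, and Klrd1 (-4.60, SE 0.70), a natural killer cell receptor, and Slamf7 (-1.12, SE 0.33) were lower.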

How the data were processed

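Total RNA of sorted leukocytes was sequenced in 70 libraries. Per the study's methods, HISAT2 was used to map paired reads on mm10, and htseq-count gave the number per gene of the Ensembl annotation. The authors deposited raw counts per gene and library, with no normalisation. The strand setting of the counting is not given in the sources used here. Of 52636 identifiers 52403 were matched to GENCODE M21 symbols. No 2 of the 70 libraries held identical counts.

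Libraries 52 and 70 were left out. Counts were fitted in R 4.3.3 with edgeR 4.0.16 (TMM, filterByExpr, robust quasi-likelihood F test), 1 fit per cell type with CON, SUS and RES, and 1 fit of all 12 groups for comparisons between cell types and for the interaction, with Benjamini-Hochberg adjustment over all genes tested. A gene was called below an adjusted p of 0.05 and beyond a log2 difference of 1 in size, and for the interaction by the adjusted p alone. As red cell covariate the log2(CPM + 0.5) of 6 red cell genes was averaged per library. These genes were higher on average in SUS and RES than in CON monocytes, so this covariate is confounded with condition. All 8 members passed the low-count filter in both monocyte types and in the fit of all groups. Intervals of 95% are the estimate ± 1.96 SE. The scripts were tested on simulated data. Alternatives were DESeq2 1.42.0, other size factors, filters, thresholds and samples, a red cell covariate, and leaving out each library in turn. Per library CPM come from the same size factors. Named list genes were all those past the thresholds, up to 4 per list and comparison by size of fold, or else 1 default gene per list. The members, lists and tests were chosen with earlier results of these data known. Replicate numbers are those of the library titles.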

Additional observations from a re-analysis of the deposited data

Results flagged for a closer look

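Among 67 combinations of gene and group with a mean of at least 1 CPM, 5 held a library far from the others of its group, and chance alone flags about 1 in 20 groups. In Ly6C-low SUS monocytes, library 33 held 9.30 CPM of Mgl2 against 0.879 to 2.30 in the others. Batf3 was at 2.65 CPM in Ly6C-low RES library 26, against 6.45 to 10.4. Zbtb46 was at 0 CPM in Ly6C-high SUS library 14 (1.68 to 4.63 in the others), at 0.604 CPM in CON B cell library 38 (3.13 to 5.39) and at 2.34 CPM in SUS T cell library 57 (5.63 to 8.02).

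The libraries left out because their markers go against their labels were examined for the same genes. Library 52, labelled RES B cells, held 33.7 CPM of Itgax and 6.83 CPM of Zbtb46, above the CON B cell libraries (at most 2.87 and 5.98 CPM). Against CON T cell libraries, its Zbtb46 lay within their range (6.26 to 9.57 CPM) and its Itgax above it (1.66 to 14.6 CPM). Library 70, labelled RES T cells, held 124 CPM of Irf4 and 1.58 CPM of Flt3, above the CON T cell libraries (at most 13.8 and 0.80 CPM). Against CON B cell libraries, its Flt3 lay within their range (0.854 to 3.30 CPM) and its Irf4 below it (150 to 177 CPM).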

How the results depend on the processing

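Of 461 alternatives to the 19 counts of members called, 434 left the count within 1.5 times the reported one. Ly6C-high SUS against CON (1 called) is the comparison that chose the set, so its counts are a description and support nothing. There 2 members passed with DESeq2, with at least 10 counts in every library and with only those groups fitted (Cd209a and Itgax). With the adjusted p alone 2 passed as well (Cd209a and Irf4). By glmTreat against a log2 fold change of 1, and with the red cell covariate, 0 passed. Leaving out 1 library gave 1 to 2. In Ly6C-low SUS against CON (1 called), 0 passed with only those groups fitted, by glmTreat and with the covariate, and leaving out 1 library gave 0 to 1. Between monocyte types in CON (4 called), glmTreat left 2. Asking for at least 10 counts in every library removed most members from the fit of all groups and left 1 in the comparisons of Ly6C-high with Ly6C-low and with T cells, of Ly6C-low with B and T cells, and of B with T cells (Irf4 in each), and 0 for Ly6C-high against B cells. The cause of the other changes was not tested.

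Reversed log2 differences were those of Irf4 (0.11) and Zbtb46 (0.38) in Ly6C-high RES against CON with the red cell covariate. With 1 library left out, Zbtb46 in Ly6C-high SUS against RES ran from -0.41 to 0.38 and Batf3 in Ly6C-low RES against CON from -0.18 to 0.47 and in SUS against RES from -0.32 to 0.022. The interaction ran from -0.046 to 0.61 for Batf3 and from -0.31 to 0.65 for Mgl2. None of these was called. With libraries 52 and 70 kept, Irf4 lost its call for Ly6C-high against Ly6C-low (adjusted p = 0.151) and for Ly6C-low against B cells (0.0513). Pseudocounts of 0.1 and 1 changed no direction of the 14 Pearson correlations and no side of 0.05 of their permutation p; those over Ly6C-low libraries were added after seeing the data.

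Between cell types DESeq2 called fewer genes in all than edgeR (2542 against 2570 for Ly6C-high against Ly6C-low), and it called more in these comparisons: 255 against 169 in Ly6C-high RES against CON, 11 against 0 in SUS against RES, 85 against 17 in Ly6C-low SUS against CON, 5 against 3 in RES against CON, 26 against 1 and 63 against 5 in SUS against CON of B and T cells, 6 against 0 in RES against CON of each, 2 against 0 in T cell SUS against RES, and 154 against 24 for the interaction. No paired analysis was possible because the groups share no replicate numbers and the labels name no mouse. Ly6C-low CON held 4 libraries, and their Cd209a level ranged from 31.2 to 130 CPM. Mgl2 rests on few counts in Ly6C-high libraries (4 to 74 each).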

Other observations

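The genes that followed Cd209a most closely across Ly6C-low libraries were looked up after the values above had been seen, so they are a description. Among 9288 protein-coding genes with a mean of at least 5 CPM, the 10 with the highest Pearson r of deviations from group means over 16 libraries were Clec10a (0.920), H2-Aa (0.917), Mrc1 (0.911), Tmem176b (0.908), Adgra2 (0.904), Plxnd1 (0.904), H2-Eb1 (0.901), Cd74 (0.895), Flt3 (0.881) and Soga1 (0.873). The MHC class II genes H2-Aa and H2-Eb1, their invariant chain Cd74, and the mannose receptor Mrc1 thus stood beside both lectins and Flt3. Irf4 was at rank 37 (0.777), Mgl2 at 53 (0.748), Batf3 at 375 (0.541), Zbtb46 at 653 (0.454) and Itgax at 9003 (-0.563). Among pairs of members, Clec10a and Flt3 had r = 0.872 and Clec10a and Mgl2 r = 0.813 over Ly6C-low libraries. In Ly6C-high libraries the same pairs had r = -0.635 and 0.183, and the highest pair there was Flt3 and Zbtb46 (0.694).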
